A study of Mus musculus with 10 samples.

Results

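The genes of the cytoplasmic translation initiation factors (eIFs) and elongation factors (eEFs) were followed in sorted luminal cells of the mouse mammary gland. Members were the protein-coding genes whose symbols begin with Eif1 to Eif6, Eef1 or Eef2 and whose mean over all libraries was at least 10 normalized read counts. The Eif2ak kinases, Eef2k, Eif4b, the Eif4ebp genes and the Eef1akmt genes were set apart by the rule. Of 26312 genes in the table, 54 had a matching symbol and 52 were kept as members. Eif2s3y and Eif4e1b, each with a mean of 0.2, fell below the minimum, and the lowest members inside it were Eif5a2 with 13.5 and Eif1b with 114.9. All 52 members were among the 15180 genes tested. Eef2kmt matches the letters of the rule but encodes a methyltransferase that modifies eEF2.

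Initiation begins when eIF2, loaded with GTP and the initiator methionyl-tRNA, joins the small ribosomal subunit together with eIF1, eIF1A, eIF3 and eIF5, while eIF4F binds the cap of the messenger RNA and unwinds its leader. The eIF2B complex recharges eIF2 with GTP, and phosphorylation of the eIF2 alpha subunit blocks that step. During elongation, eEF1A brings aminoacyl-tRNA to the ribosome, the eEF1B complex recharges eEF1A, and eEF2 moves the ribosome along the message. Messages of the elongation factors and of several eIF3 subunits begin with a run of pyrimidines at the cap (5′ terminal oligopyrimidine or TOP messages), a class they share with the ribosomal proteins and whose translation depends on mTOR signalling.

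The cells came from the 4th mammary glands of C57BL/6J mice aged 12 wk. They were sorted for high EpCAM, CD49f at a low level, Sca-1 and absence of CD49b, a gate that takes hormone-sensing luminal cells. The groups were RSK2(+/+) mice (WT) and RSK2(-/-) mice (KO), with 3 libraries each in estrus and 2 each in diestrus. RSK2 is a kinase activated by ERK and encoded by Rps6ka3, and the RSK family phosphorylates regulators of cap-dependent translation. KO stands here for the label only. Rps6ka3 was at 136, 128 and 137 normalized counts in the WT estrus libraries and at 158, 156 and 164 in the KO estrus libraries, so its level does not check the label, and the deleted stretch is not given in the sources used here. Nothing says that each library came from its own mouse, so p-values measure the spread between libraries, which may be technical.

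Library totals ran from 14108057 to 15307238 normalized counts. The 3 KO estrus libraries scored 37.4 to 55.8 on the leading principal component (29.3% of the variance) and the other 7 scored -33.1 to -5.50, with KO estrus 1 farthest out. Genes of hormone-sensing luminal cells (15 of 15 listed genes in the table) summed to 471040 to 581594 in WT estrus and 490893 to 504989 in KO estrus. Of the other cell types, the lymphocyte list (3 of 7 in the table) summed to 58 to 92 in WT estrus and 139 to 188 in KO estrus, and the macrophage list (10 of 10) to 328 to 620 and 586 to 830. The fibroblast list (6 of 6), nearly all of it Dcn, ranged from 94 in KO diestrus to 3101 in KO estrus 2. Most of the lymphocyte sum was Trbc2, which was called higher at estrus. Within the macrophage list, Cd74 was at 211, 222 and 32 in WT estrus and 409, 436 and 215 in KO estrus. C1qb was at 8, 16 and 3 and at 44, 30 and 8. C1qa was at 3, 5 and 1 and at 12, 18 and 4. C1qc was at 5, 8 and 3 and at 10, 19 and 5. The remaining genes of the list showed no such rise. Csf1r, its gene of highest mean, was at 239, 194 and 192 in WT estrus and 187, 189 and 205 in KO estrus. Cd68 was at 126, 65 and 92 and at 123, 53 and 131, and Lyz2 at 20, 81 and 0 and at 39, 22 and 11. Ptprc and Adgre1 were at 6 counts or less in every library. In KO diestrus the hormone-sensing list summed to 430386 to 455046, below KO estrus (3 of its genes called between the stages). Most of this sum was Krt8, Krt18 and Krt19, and the genes of the list did not share a direction. Prom1 was at 2191, 3414 and 9671 in KO estrus and 12984 and 13432 in KO diestrus. Ly6a was at 26930, 21549 and 27186 in KO estrus and 14585 and 10512 in KO diestrus. The macrophage list summed to 433 to 440 in KO diestrus, also below KO estrus (2 called), while its gene Csf1r was higher there, at 236 and 234. Of the progenitor and alveolar list 2 genes were called between these stages, with sums of 3748 to 3831 in KO diestrus and 3141 to 5013 in KO estrus. In bulk RNA a change in the make-up of the sorted cells and a change in RNA per cell cannot be told apart, and the part of these lists in the results below was not tested.

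Normalized counts are read counts after scaling between libraries and are not divided by gene length. Levels of different genes were therefore compared per kilobase of the annotated transcript with the longest coding sequence. In WT estrus, Eef1a1 (18469.9 ± 1707 counts per kb, mean ± SD, n = 3) and Eif1 (18119 ± 2149.9) stood highest, and their values did not differ beyond the spread. Eif5a (8281 ± 2129.7) and Eef2 (5326 ± 317) followed, and then Eif4a1 (3439.9 ± 297), the main RNA helicase of eIF4F. Within eIF3 the level ran from 255 ± 8.86 for Eif3j2 to 1795 ± 229 for Eif3g, with Eif3k close to it at 1779.5 ± 79.6, within eIF2 from 402 ± 8.67 for Eif2s3x to 792 ± 124 for Eif2s2, and within eIF2B from 247 ± 47.1 for Eif2b3 to 455 ± 32.2 for Eif2b2. Eif5a2 was lowest of all at 2.32 ± 0.828 counts per kb. The 52 members took up 1.26 to 1.28% of all counts in WT estrus, 1.40 to 1.66% in KO estrus, 1.32 to 1.34% in WT diestrus and 1.36 to 1.48% in KO diestrus. Eef1a1, Eif1 and Eef2 made up 38.1 to 40.1% of the members' counts in WT estrus against 55.7, 49.9 and 43.6% in KO estrus 1, 2 and 3. These shares did not overlap between the genotypes at estrus.

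**Figure D1:**
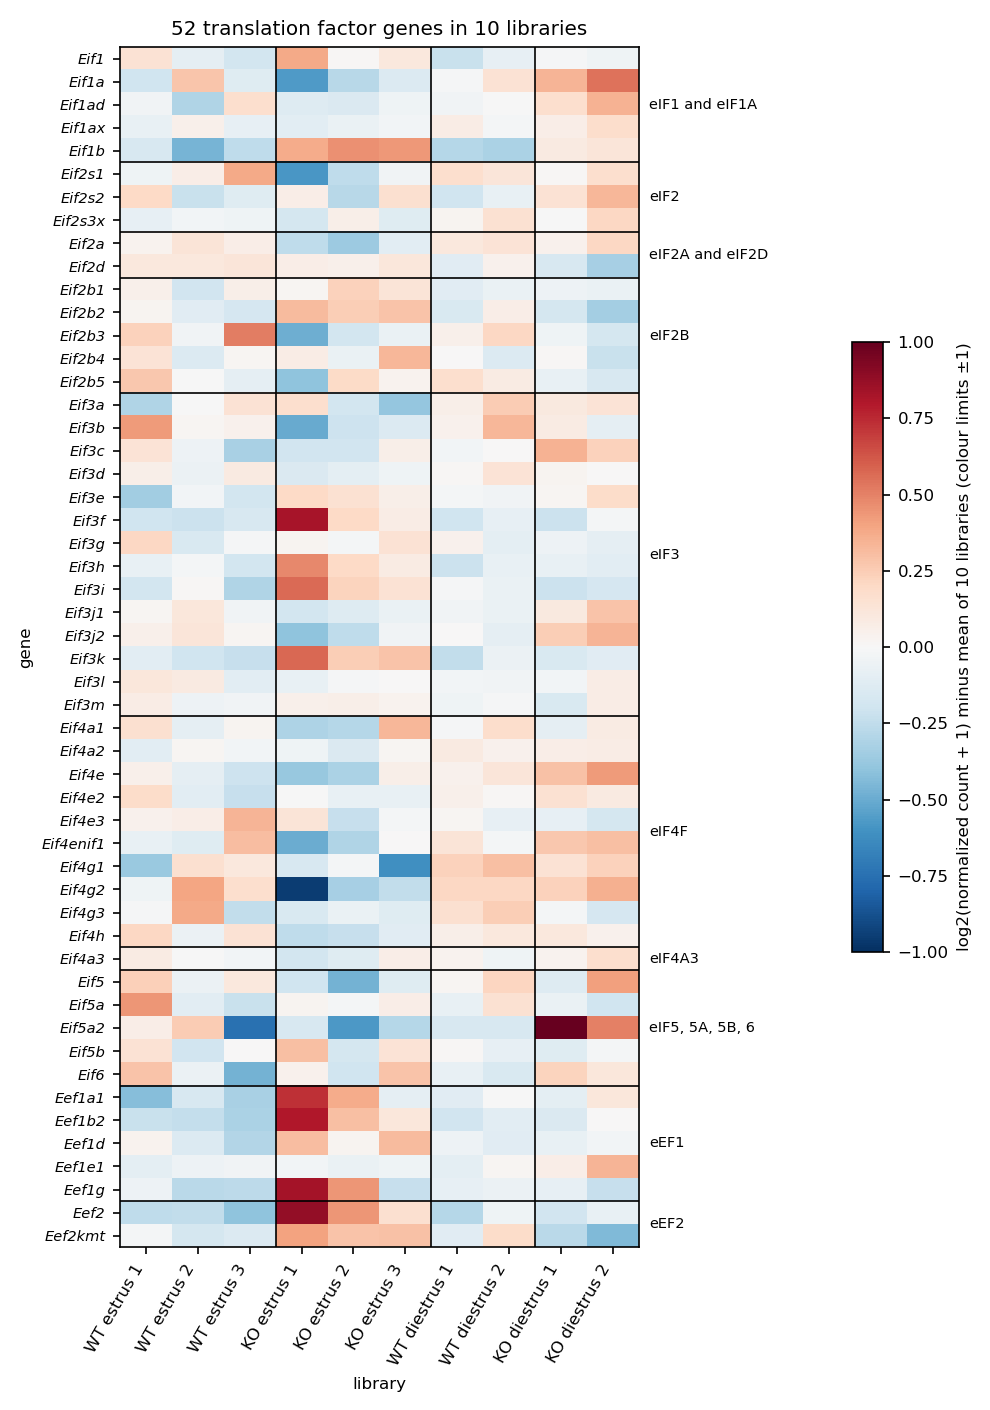
Heat map of the 52 members (rows, by complex) in 10 libraries (columns), coloured by log2(normalized count + 1) minus that gene's mean over the 10 libraries, with colour limits at ±1. The rows of Eef1a1, Eef1b2, Eef1g, Eef2 and Eef2kmt are darkest red in KO estrus 1, where Eef2 stood at 37253 counts. Eef1d was as high in KO estrus 3 (2233) as in KO estrus 1 (2219), and Eef1e1 was highest in KO diestrus 2 (366).

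At estrus, 4 members rose and 0 fell in the libraries labelled KO against WT. They were Eef2, the translocation factor, Eef1b2, a subunit of the exchange complex of eEF1A, Eif1b, a paralog of the scanning factor eIF1, and Eif3k, a subunit of eIF3. Tests were limma's, on log2(count + 1) over all 15180 genes, with Benjamini-Hochberg adjusted p under 0.05. The 4 rises compare with 1.26% of all tested genes called higher, and the 0 falls with 2.94% called lower (4.2% in either direction). With an unadjusted p under 0.05, 13 members were higher and 6 lower, against 11.8% and 14% of all genes. KO and WT libraries did not overlap for 11 members that were higher and 8 that were lower, against 12.9% and 13.1% of all genes (26% in either direction). Of the 52 members 22 had a difference above 0, against 49% of all genes, and their median difference was -0.03 beside -0.01 for all genes. Differences of the members thus lay on both sides of 0, as did those of all genes.

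Each of the 4 rises was lost in some alternatives: of 22 settings, Eif3k was called in 10, Eef1b2 and Eef2 in 8 each and Eif1b in 7. No member was called without KO estrus 1, 1 (Eif3k) was called without KO estrus 2, and 7 were called without KO estrus 3. The 7 were Eef1a1, Eef1b2, Eef1g, Eef2, Eif3f and Eif3k, higher, and Eif4g2, lower. Leaving out WT estrus 1 gave 2 calls, and leaving out WT estrus 2, WT estrus 3 or any 1 diestrus library gave 0.

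**Figure D2:**
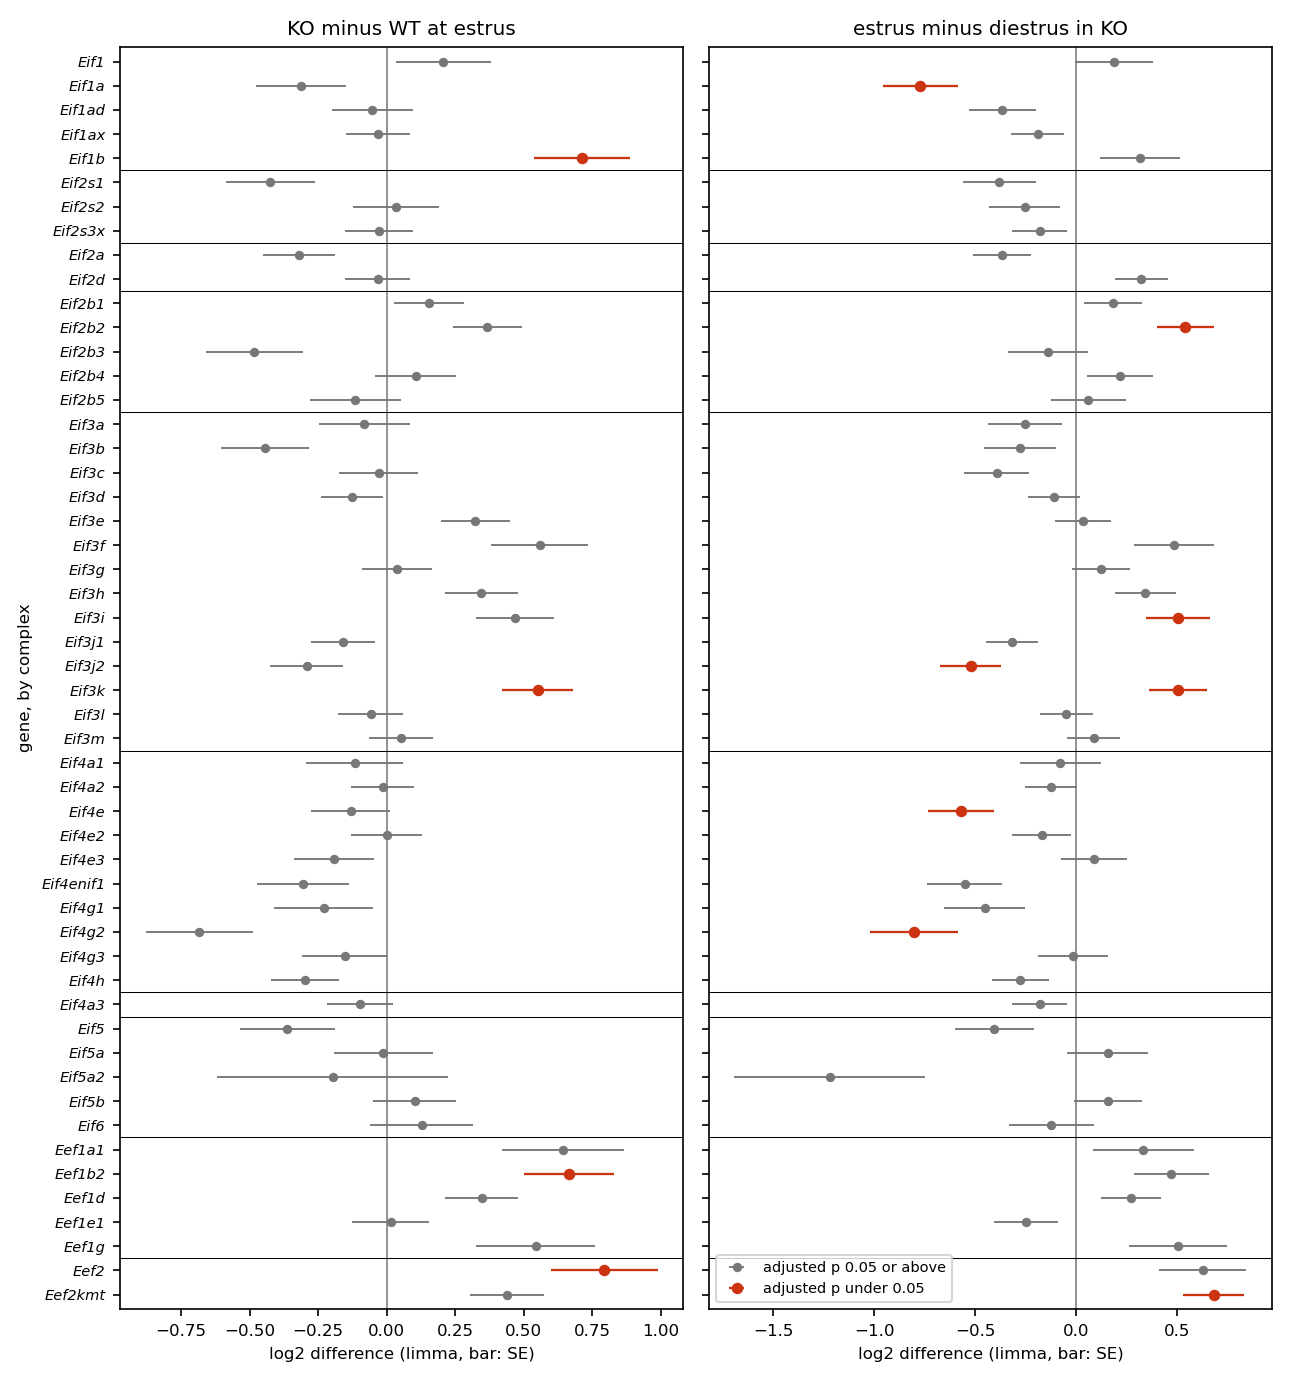
Log2 difference (limma estimate, bars ± SE) of each member in KO minus WT at estrus (left) and in estrus minus diestrus among KO libraries (right), with lines between the complexes and members of adjusted p under 0.05 in red. At estrus the 4 red points lie right of 0, while the 10 eIF4F members lie at or left of it; those nearest 0, among them Eif4a2 and Eif4e2, crossed it under some scalings.

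The messages of 8 members are classical TOP messages: Eef1a1, Eef1b2, Eef1d, Eef1g, Eef2, Eif3e, Eif3f and Eif3h. Their start sites are shown because all 8 had a difference above 0 at estrus, beside Eif3k and Eif1b, which were also called, and beside the cap-binding factor Eif4e. The windows run from 8 bases before to 22 bases from the start annotated in RefSeq (GRCm38.p6), 5′ to 3′, with the longest run of C and T in capitals; Eef1d, Eef1g, Eif3e and Eif3h had no entry.
Eef1a1 (chr9:78481703-78481732, minus strand): ccgCCCTCTTCCCgagggtgggggagaacg
Eef2 (chr10:81176623-81176652, plus strand): ggccgggcgttgacgtcagcggTCTCTTCC
Eif3f (chr7:108934407-108934436, plus strand): taggCTCTCTCTCTTTCTCggcaagatggc
Eef1b2 (chr1:63176823-63176852, plus strand): gcagTTCCgccggaagtagccgaggccttg
Eif3k (chr7:28981867-28981896, minus strand): ccggcgctggtgctgaaagcgCCTTTCCCT
Eif1b (chr9:120492598-120492627, plus strand): gcggggctaaatacgcggcgccggccaTTT
Eif4e (chr3:138526183-138526212, plus strand): acagcagcggaggcggagggagctggTCCT
Eif4e, second start (chr3:138527260-138527289, plus strand): CCCTTCaggagcggttgtgcgatcagatcg
Within these windows the run was 10 bases in Eef1a1, 8 in Eef2, 15 in Eif3f and 9 in Eif3k, and 4 or fewer in Eef1b2 and Eif1b. Eif4e has 2 annotated starts, with runs of 4 and 6 bases in these windows. Runs that reach the edge of a window, as in Eef2, Eif3k, Eif1b and Eif4e, may go on beyond it. Among the members not shown, the windows of Eif2s3x, Eif2b5 and Eif3l held runs of 16, 12 and 10 bases. Their differences at estrus were -0.03, -0.12 and -0.06, so long runs were not limited to members that were higher. A run of at least 7 letters, each C or T, on the gene's strand within 30 bases on either side of an annotated start was found in 14 of 41 members with an entry (34.1%), among them Eif4e at its second start. The same search gave 37.4% of 27025 RefSeq genes and 36.1% of 10192 tested genes, and the members' share was below both. A match is a description of letters near the annotated start, which need not be the start used in these cells.

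All 8 TOP members had a difference above 0 in KO against WT at estrus, with a median of 0.55, and 2 of them rose. The values for the other 44 members were 14 above 0 and a median of -0.06. As a mean of log2 levels relative to the 10 libraries, the 8 stood at -0.19, -0.16 and -0.27 in WT estrus and at 0.63, 0.27 and 0.06 in KO estrus 1, 2 and 3. The order of the KO libraries was the same for 78 ribosomal protein genes, at 0.91, 0.35 and 0.04, against -0.30 to -0.19 in WT estrus. In diestrus the TOP members lay at -0.14 to -0.02 and the ribosomal protein genes at -0.19 to -0.08. The 8 members stayed above 0 under each of the 22 alternatives run, with medians from 0.32 without KO estrus 1 to 0.76 without KO estrus 3. Several of the 22 cannot change a difference at estrus and left the median at 0.55. Among them were the changed filters, the fit without a trend in the spread and the omission of a diestrus library. The list was drawn up with earlier results of these data known, so its direction is a description.

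**Figure D3:**
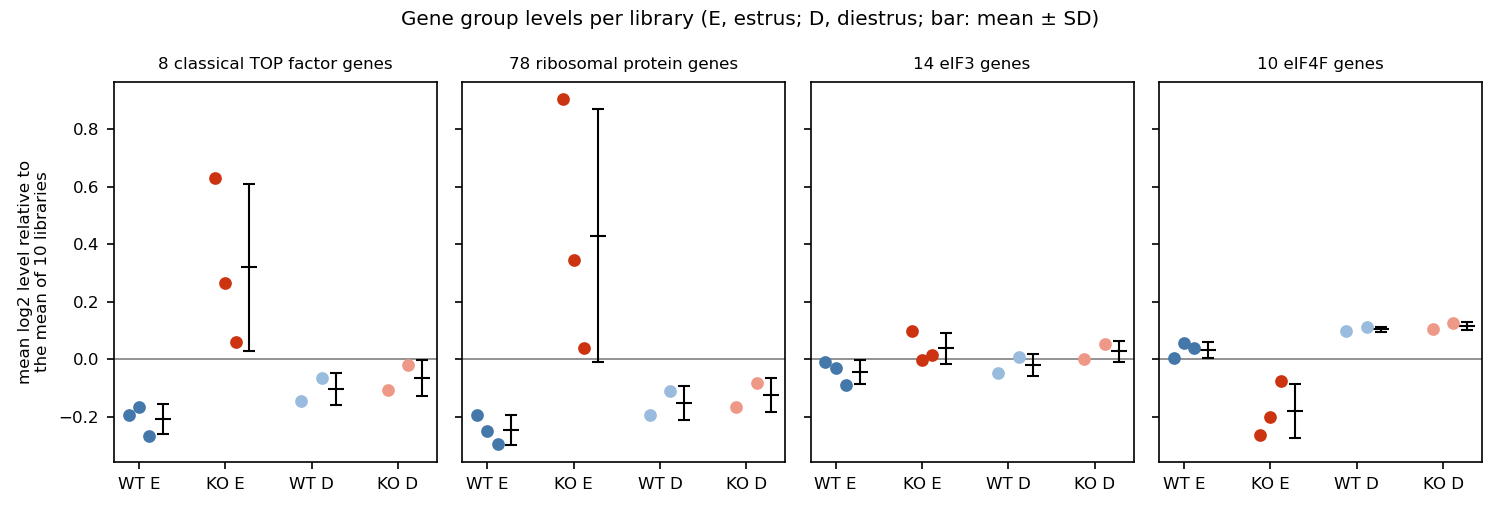
Mean log2 level of 4 gene groups in each library relative to the mean of the 10 libraries (points, with mean ± SD; n = 3 at estrus, E, and 2 at diestrus, D). The TOP factor and ribosomal protein genes show 1 high, 1 middle and 1 low KO estrus library, while the eIF4F genes are lowest in the KO estrus libraries, at -0.26, -0.20 and -0.08.

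Eef1a1 encodes eEF1A, which delivers aminoacyl-tRNA. Eef1a1 (ENSMUSG00000037742; GRCm38 chromosome 9, 78478449 to 78489151) was at 30432, 36460 and 32513 counts in WT estrus and 67675, 52848 and 38378 in KO estrus. Each KO value was above each WT value, and KO estrus 3 was close to the highest WT library. The difference of 0.64 ± 0.22 (log2, SE) did not pass the test (limma adjusted p = 0.1). In diestrus Eef1a1 was at 37743 and 40625 in WT and 38075 and 44053 in KO, which overlap, with a difference of 0.06 (95% interval -0.53 to 0.66). Of the 50-base stretches of its transcript, 59.2% occur in transcripts of other annotated genes, so its count depends on how such reads were assigned.

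Eef1b2 encodes the subunit of eEF1B that exchanges the nucleotide on eEF1A. It rose from 1639, 1619 and 1537 counts in WT estrus to 3336, 2356 and 2067 in KO estrus (log2 difference 0.66 ± 0.16, 1.58-fold, limma adjusted p = 0.0456). The groups did not overlap, and KO estrus 1 was the highest library by far. Over the alternatives its adjusted p ran from 0.0235 to 0.126. Diestrus values were 1675 and 1781 in WT and 1732 and 1924 in KO, with a difference of 0.08 ± 0.20. Eef1b2 is at chromosome 1, 63176825 to 63180486, and 6.95% of its exon length overlaps Gm27390 on the same strand.

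The differences of the other eEF1 members did not pass the test. Eef1g, the scaffold subunit, was at 3550, 3049 and 3074 in WT estrus and 6562, 5014 and 3136 in KO estrus. KO estrus 3 lay within the WT range, so the groups overlapped, and the difference of 0.54 ± 0.22 had an adjusted p of 0.141 (limma). Of the 50-base stretches of the Eef1g transcript, 64.3% occur in transcripts of other annotated genes, so its count also depends on how such reads were assigned. Eef1d, a second exchange subunit, was at 1839, 1632 and 1465 in WT and 2219, 1826 and 2233 in KO, with a difference of 0.35 ± 0.13 (adjusted p = 0.128). Its lowest KO library lay just under the highest WT library. Eef1e1, which encodes a scaffold protein of the aminoacyl-tRNA synthetase complex, was at 270, 280 and 282 in WT and 284, 276 and 281 in KO, a difference of 0.02 ± 0.14 (95% interval -0.29 to 0.32). In all, 5 of 5 eEF1 members had a difference above 0 (median 0.54, and 0.30 without KO estrus 1).

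eEF2 moves the ribosome by 1 codon after each peptide bond. Eef2 (chromosome 10, 81176631 to 81182498) was at 16931, 17099 and 15326 in WT estrus and 37253, 27506 and 22613 in KO estrus. It had the largest difference among the members at estrus (0.79 ± 0.19, 1.73-fold, limma adjusted p = 0.0447, 0.0215 to 0.128 over the alternatives). No KO value overlapped the WT values, and the KO values themselves differed by more than the WT values did, with SDs of 7453 and 979. In diestrus Eef2 was at 16643 and 19648 in WT and 17754 and 19211 in KO, with a difference of 0.03 (95% interval -0.49 to 0.55). Among KO libraries, estrus exceeded diestrus by 0.63 ± 0.22, which did not pass (adjusted p = 0.0669).

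Eef2kmt, the methyltransferase of eEF2, was at 523, 469 and 484 in WT estrus and 701, 649 and 651 in KO estrus. All 3 KO values were higher, and the difference was 0.44 ± 0.13 (limma adjusted p = 0.0733). In diestrus the order was the opposite, with 490 and 603 in WT and 440 and 392 in KO. Among KO libraries it rose from diestrus to estrus by 0.68 ± 0.15 (adjusted p = 0.0141), and this call was kept under 19 of 22 alternatives. Exons of Alg1 and Gm15983 on the opposite strand cover 23.0% of its exon length, and whether reads were counted by strand is not given in the sources used here.

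**Figure D4:**
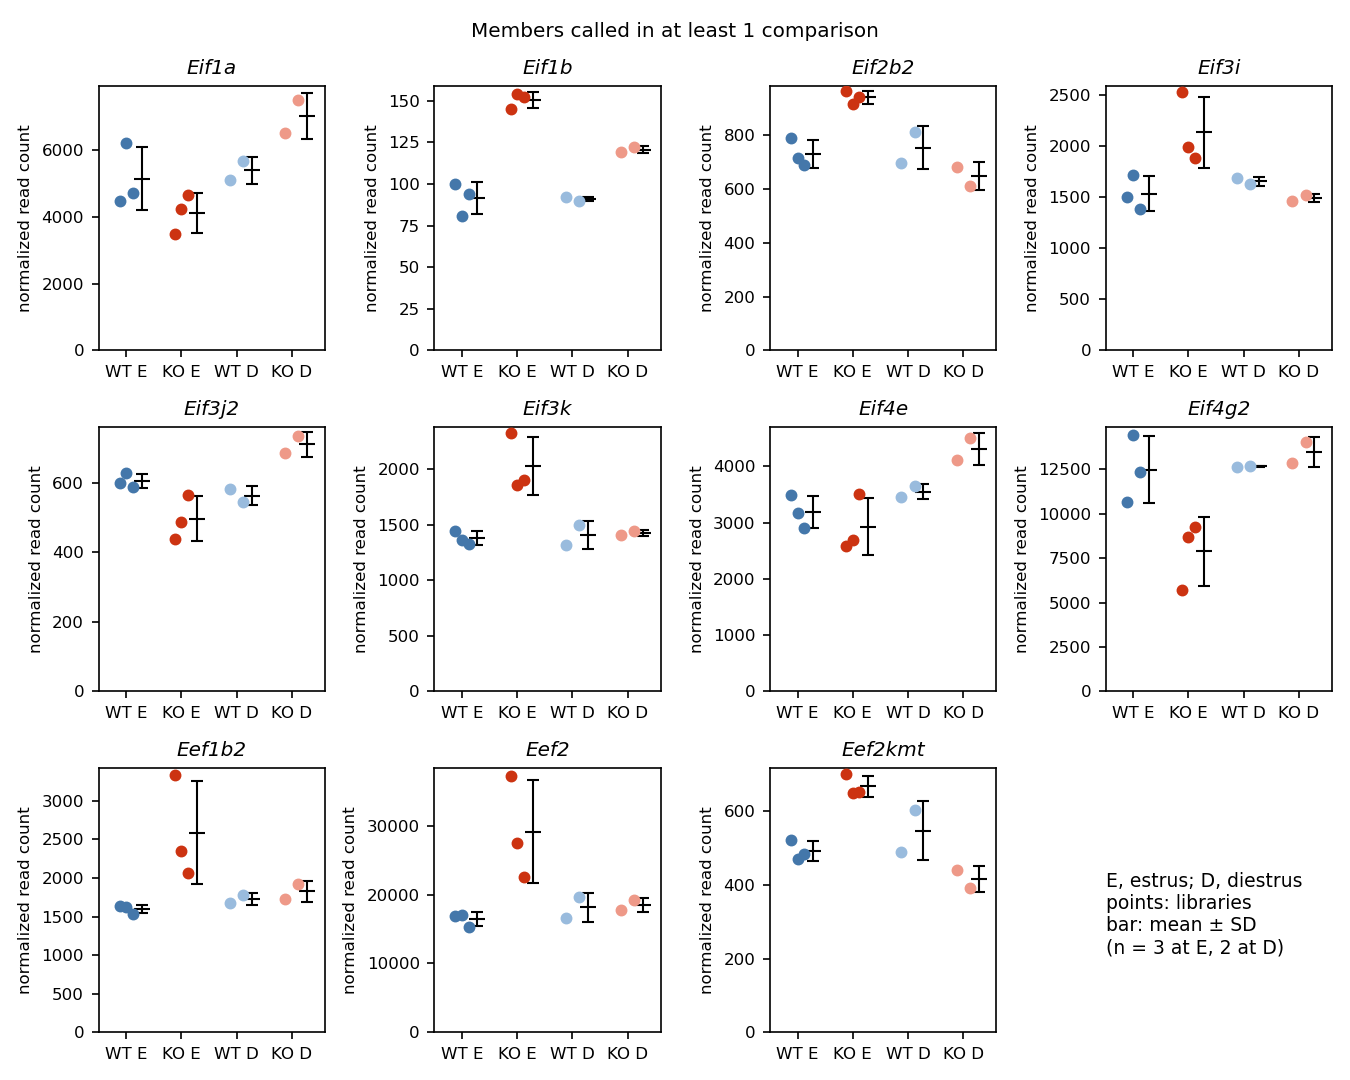
Normalized read counts of the 11 members called in at least 1 comparison, by library (points) with mean ± SD (n = 3 at estrus, E, and 2 at diestrus, D), on axes starting at 0. Eif1b shows 3 KO estrus libraries between 145 and 154 above WT libraries of 81 to 100, while Eif4g2 shows KO estrus libraries below all others.

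eIF1 and eIF1A keep the small subunit open for scanning and help to select the start codon. Eif1 itself, the second most abundant member per kilobase in WT estrus, was at 27135, 23061 and 21665 in WT estrus and 31959, 24724 and 26393 in KO estrus, and the groups overlapped (difference 0.21 ± 0.17, limma adjusted p = 0.481). Its paralog Eif1b (chromosome 9, 120492232 to 120495330) rose from 100, 81 and 94 to 145, 154 and 152 (0.71 ± 0.18, 1.64-fold, adjusted p = 0.0453). The KO values were all above WT, and they lay closer together than those of Eef2 and Eef1b2. Eif1b was also at 119 and 122 in KO diestrus above 92 and 90 in WT diestrus, a difference of 0.40 ± 0.22 that did not pass (adjusted p = 0.885). Its level is low: it made up 0.38 ± 0.04% of the summed Eif1 and Eif1b counts in WT estrus and 0.55 ± 0.09% in KO estrus (n = 3 each). The 2 coding sequences are 81.1% identical with a longest shared run of 25 bases, and 12.7% of Eif1b's exon length is covered by D830035M03Rik on the opposite strand.

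Eif1a and Eif1ax encode 2 forms of eIF1A. Eif1a was at 4486, 6225 and 4721 in WT estrus, 3481, 4243 and 4666 in KO estrus, 5114 and 5685 in WT diestrus and 6526 and 7508 in KO diestrus. The KO diestrus libraries were the highest and the KO estrus libraries overlapped WT estrus. Among KO libraries Eif1a fell from diestrus to estrus by 0.77 on the log2 scale (SE 0.18, limma adjusted p = 0.0188). Eif1ax lay between 800.3 and 914 as a mean in each group, with no difference past the threshold. Eif1ad, a nuclear protein with an eIF1A-like domain, had a difference of -0.05 ± 0.15 at estrus (95% interval -0.38 to 0.27).

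eIF2 carries the initiator tRNA. Its alpha subunit gene Eif2s1, the target of the stress kinases, was at 1557, 1679 and 2086 in WT estrus and 1071, 1342 and 1567 in KO estrus. The highest KO library lay just above the lowest WT library, and the difference of -0.42 ± 0.16 did not pass (limma adjusted p = 0.126). The beta subunit gene Eif2s2 and the gamma subunit gene Eif2s3x differed by 0.03 ± 0.16 and -0.03 ± 0.12, with 95% intervals of -0.31 to 0.37 and -0.30 to 0.24. So 0 of 3 eIF2 members were called at estrus by limma, with 1 (Eif2s1) at an unadjusted p under 0.05. Eif2a and Eif2d encode 2 further proteins that can place an initiator tRNA. Eif2a was at 533, 571 and 547 in WT estrus and 436, 404 and 485 in KO estrus, without overlap, but its difference of -0.32 ± 0.13 did not pass (adjusted p = 0.145).

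The 5 subunit genes of eIF2B, the exchange factor of eIF2, did not share a direction. Eif2b2, the beta subunit, was at 789, 714 and 690 in WT estrus and 965, 918 and 942 in KO estrus, so that all KO libraries were higher (0.37 ± 0.13, limma adjusted p = 0.0974). In diestrus it was at 697 and 812 in WT and 684 and 611 in KO, with all KO libraries lower. Its rise from diestrus to estrus among KO libraries passed the test (0.54 ± 0.14, adjusted p = 0.0251). Eif2b3, the gamma subunit, which sits beside the catalytic one, was lower in all 3 KO estrus libraries at 229, 283 and 307, against 377, 314 and 460 in WT, a difference of -0.48 ± 0.18 (adjusted p = 0.114). The other 3, Eif2b1, Eif2b4 and the catalytic Eif2b5, overlapped between genotypes at estrus, at 0.15, 0.11 and -0.12.

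eIF3 is the large scaffold on the small subunit, and its 14 genes split evenly at estrus, with 7 above 0 and 7 below (median 0.00). Eif3k rose; it encodes a small peripheral subunit. It was at 1446, 1359 and 1327 in WT estrus and 2325, 1854 and 1905 in KO estrus (0.55 ± 0.13, 1.47-fold, limma adjusted p = 0.0408, 0.0319 to 0.123 over the alternatives). The KO values were all above WT. In diestrus it was at 1315 and 1494 in WT and 1406 and 1441 in KO, which overlap, and its rise from KO diestrus to KO estrus was 0.50 ± 0.14 (adjusted p = 0.036). The KO estrus libraries enter both of these calls.

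Of the 3 TOP members in eIF3, Eif3f (an MPN domain subunit) was at 1200, 1187 and 1237 in WT estrus and 2446, 1581 and 1456 in KO estrus. Eif3h, the other MPN domain subunit, was at 2268, 2353 and 2099 in WT and 3327, 2736 and 2521 in KO. Eif3e was at 1307, 1634 and 1465 in WT and 1913, 1847 and 1736 in KO. All 9 KO values were above the WT values of the same gene, yet none of the differences passed (0.56 ± 0.18, 0.34 ± 0.13 and 0.32 ± 0.13, limma adjusted p of 0.0786, 0.13 and 0.132). Eif3i, a beta-propeller subunit, was at 1500, 1717 and 1379 in WT estrus and 2525, 1987 and 1880 in KO estrus, again without overlap (0.47 ± 0.14, adjusted p = 0.0713). In diestrus its KO values of 1462 and 1515 were below the WT values of 1684 and 1621, and its rise from KO diestrus to KO estrus was just past the threshold (0.51 ± 0.16, adjusted p = 0.0496).

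The core subunits of eIF3 did not share that direction. Eif3b was at 5426, 4090 and 4159 in WT estrus and 2853, 3502 and 3676 in KO estrus, without overlap (-0.44 ± 0.16, limma adjusted p = 0.111). Eif3a and Eif3c differed by -0.08 ± 0.17 and -0.03 ± 0.14, and their groups overlapped. Eif3d, which can itself bind a cap, Eif3g, Eif3l and Eif3m differed by -0.13, 0.04, -0.06 and 0.05, and 43.3% of the exon length of Eif3d lies opposite Gm17638. Eif3j1 and Eif3j2 encode the loosely bound j subunit. Eif3j2 was at 600, 629 and 588 in WT estrus, 439, 486 and 566 in KO estrus, 582 and 545 in WT diestrus and 686 and 735 in KO diestrus. It fell from KO diestrus to KO estrus by 0.52 (SE 0.15, adjusted p = 0.0364), while Eif3j1 differed by -0.32 ± 0.13 (adjusted p = 0.113). Their coding sequences are identical over 783 aligned bases, so reads inside them cannot be assigned to 1 of the 2, and Eif3j2 made up 25.9 to 28.8% of their sum as a mean in each group.

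eIF4F joins the cap-binding eIF4E, the scaffold eIF4G and the helicase eIF4A, and 10 members were grouped with it. The 10 include Eif4e2, Eif4e3 and Eif4g2, which are relatives of the subunits, and Eif4h and Eif4enif1, which act on the helicase and on eIF4E and are not subunits. Of these 10 members at estrus 0 were above 0, with a median of -0.17, but 0 were called (limma), and 2 (Eif4g2 and Eif4h) were lower at an unadjusted p under 0.05. The count above 0 depends on scaling for members near 0: it was 2 after scaling to equal totals or by quantiles, 1 after trimmed mean scaling and 3 after removing the trend on length and GC content, and 0 to 2 when single libraries were left out. The median stayed below 0 in each of these, from -0.24 to -0.07.

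Eif4g2 (chromosome 7, 111067750 to 111083030) had the largest difference below 0. It encodes a relative of eIF4G that lacks the part binding eIF4E and supports initiation without it, and its own reading frame starts at a GUG codon. The annotated start (GENCODE M21, GRCm38, chr7:111081527-111081556, minus strand) is shown for this reason, with the start codon in capitals.
Eif4g2: gccgccaaaGTGgagagtgcgattgcagaa
Its counts were 10659, 14452 and 12338 in WT estrus and 5688, 8700 and 9256 in KO estrus, 12646 and 12699 in WT diestrus and 12880 and 14068 in KO diestrus. Each KO estrus library was below each of the other 7, with KO estrus 1 lowest. At estrus the difference of -0.68 ± 0.20 did not pass (limma adjusted p = 0.0615). Among KO libraries the fall from diestrus to estrus by 0.80 (SE 0.22) did (adjusted p = 0.0298, and called under 15 of 22 alternatives).

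The cap-binding Eif4e was at 3485, 3164 and 2909 in WT estrus and 2582, 2692 and 3507 in KO estrus, overlapping (-0.13 ± 0.15, 95% interval -0.45 to 0.19). The KO diestrus libraries at 4106 and 4509 were above WT diestrus at 3455 and 3652, and Eif4e fell from KO diestrus to KO estrus by 0.57 (SE 0.16, limma adjusted p = 0.0356). Its relatives Eif4e2 and Eif4e3 differed at estrus by -0.00 and -0.19. The helicase genes Eif4a1 and Eif4a2 differed by -0.12 ± 0.18 and -0.02 ± 0.12; Eif4a1 has a pseudogene, Eif4a-ps4, that is 99.9% identical in the coding part. The scaffolds Eif4g1 and Eif4g3 differed by -0.23 ± 0.18 and -0.15 ± 0.16. Eif4h, which stimulates the helicase, was at 5305, 4404 and 5074 in WT estrus and 3846, 3912 and 4238 in KO estrus without overlap (-0.30 ± 0.13, adjusted p = 0.158). Eif4enif1, the transporter of eIF4E, differed by -0.30 ± 0.17. Eif4a3, a helicase of the exon junction complex and not of eIF4F, differed by -0.10 ± 0.12.

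Late factors of initiation gave 0 calls at estrus (limma; 0 at an unadjusted p under 0.05). Eif5, which triggers GTP hydrolysis on eIF2, was at 9864, 8045 and 9025 in WT estrus and 7277, 6021 and 7695 in KO estrus, without overlap (-0.36 ± 0.17, adjusted p = 0.215). Eif5a, the hypusine-bearing factor, ranged from 9749 to 15403 in WT estrus and from 11183 to 11916 in KO estrus (-0.01 ± 0.18, 95% interval -0.40 to 0.38). Its paralog Eif5a2 had 7 to 15 counts in all libraries except KO diestrus, where it had 31 and 18. Eif5b, which joins the subunits, and Eif6, which keeps the large subunit apart, differed by 0.10 ± 0.15 and 0.13 ± 0.19.

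Across the members, shorter messages had larger differences at estrus. Of the 26 members with transcripts shorter than the median of 2339 bases, 16 were above 0 (median 0.12), against 6 of the 26 longer ones (median -0.12). Pearson's r between log2 transcript length and the difference was -0.47 and Spearman's rho -0.50 over the 52 genes, which share the same 6 libraries and are not independent replicates. With the longest annotated transcript r was -0.51 for the members, and over 15146 genes it was -0.22. Per doubling of transcript length, log2 levels relative to the mean of all libraries changed by -0.12, -0.03 and -0.08 in KO estrus 1, 2 and 3 and by -0.02 to 0.06 in the other 7 libraries. After removal of each library's trend on length and GC content, 1 member was called at estrus, Eif3e, and none of the 4 named above. Their differences were then 0.71 for Eef2, 0.66 for Eef1b2, 0.47 for Eif1b and 0.40 for Eif3k, against 0.79, 0.66, 0.71 and 0.55 before. The 8 TOP members had a median of 0.56. The part of length in the calls was not tested beyond this.

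**Figure D5:**
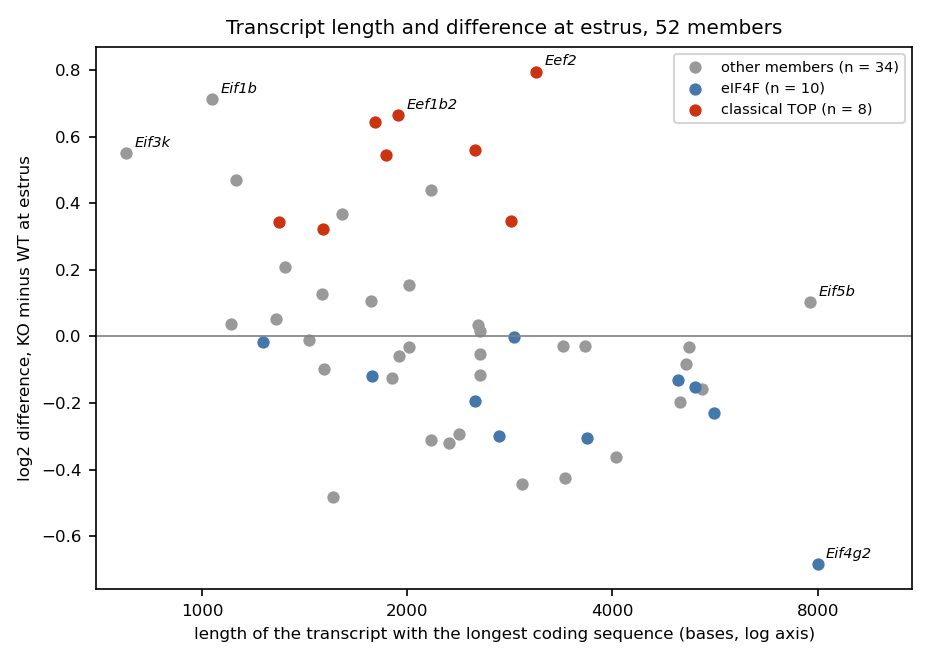
Log2 difference of the 52 members in KO minus WT at estrus (y) against the length of the transcript with the longest coding sequence (x, log axis, bases), with the 8 TOP members in red and the 10 eIF4F members in blue. Points above 0 gather at shorter lengths, and the longest member drawn, Eif4g2 with 7995 bases, is the lowest.

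In KO against WT at diestrus 0 members were called (limma), against 0.0395% of all genes, with 1 (Eef2kmt, lower) at an unadjusted p under 0.05 (5.92% of all genes). The 2 genotypes did not overlap for 25 members, against 43.1% of all genes. The 8 TOP members ranged from -0.08 to 0.13 there. With 2 libraries a group, the intervals remain wide, and that of Eef2 still includes a rise of 0.55. Averaged over both stages 0 members were called (0.665% of all genes; 7 members at an unadjusted p under 0.05, against 14.7%).

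Estrus against diestrus gave 0 called members in WT (0% of all genes, and 0 members at an unadjusted p under 0.05, against 3.87%). Differences there ran from -0.30 for Eif4g1 to 0.18 for Eif4e3. In KO, 8 members were called, 4 higher and 4 lower at estrus, a share of 15.4% that is near the 16.6% of all genes (7.67% higher and 8.95% lower). The higher ones were Eef2kmt, Eif2b2, Eif3i and Eif3k and the lower ones Eif1a, Eif3j2, Eif4e and Eif4g2. This comparison shares the KO estrus libraries with the genotype comparison at estrus. It had 0 calls among the members without either 1 of the KO diestrus libraries, 1 without KO estrus 1, 4 without either WT diestrus library, and 13 without KO estrus 3. The test of whether the genotype difference changed with stage gave 0 members (0% of all genes). At an unadjusted p under 0.05 it gave 9 members, against 14.2% of all genes. A change of the genotype difference with stage was thus not shown for any member.

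Genes around the factors were read from fixed lists. At estrus, 1.26% of all tested genes were called higher and 2.94% lower. Among 6 genes of the eIF2 alpha kinases and phosphatases, 1 fell and 0 rose at estrus: Eif2ak3, the kinase PERK of the endoplasmic reticulum, at 715, 776 and 889 in WT and 269, 443 and 307 in KO (-1.25 ± 0.20, limma adjusted p = 0.0165). From KO diestrus to KO estrus 2 of these 6 fell, Eif2ak3 and the phosphatase subunit Ppp1r15b (-0.95 ± 0.18, adjusted p = 0.00809), in a comparison where 8.95% of all genes were called lower. Over the 22 alternatives, the fall of Eif2ak3 at estrus was called in 18, and both falls between the stages in 20. Of 16 regulators and partners of eIF4F, 0 were called in either comparison, and the most abundant, the poly(A)-binding protein gene Pabpc1, was at 3099, 3241 and 2795 in WT estrus and 7410, 4239 and 4076 in KO estrus (adjusted p = 0.0582). Its message is of the TOP class too, and it showed the same order of the KO libraries as Eef2.

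Of 13 listed genes that modify elongation factors, 11 were tested. At estrus 1 of them rose, against 1.26% of all tested genes called higher. From KO diestrus to KO estrus 2 rose, against 7.67%. Eef1akmt1, a lysine methyltransferase of eEF1A, rose at estrus from 136, 137 and 136 to 241, 230 and 208 (0.72 ± 0.18, limma adjusted p = 0.0444), and it and Eef2k, the kinase that inhibits eEF2, were higher in KO estrus than in KO diestrus (0.73 ± 0.20 and 0.90 ± 0.24, adjusted p of 0.0291 each). Among 11 other initiation, termination and recycling genes, 0 rose and 2 fell at estrus, where 2.94% of all tested genes were called lower. The 2 that fell were the ribosome recycling ATPase gene Abce1, from 1377, 1642 and 1735 to 541, 929 and 1039 (-0.97 ± 0.21, adjusted p = 0.0365), and Hbs1l, a partner in ribosome rescue (-0.62 ± 0.15, adjusted p = 0.0447). From KO diestrus to KO estrus, Mcts1 and the selenocysteine factor gene Eefsec rose and Abce1, Hbs1l and the release factor gene Gspt1 fell, where 16.6% of all genes were called. At estrus, Abce1 was called in 11 of the 22 alternatives, Eef1akmt1 in 8 and Hbs1l in 6; between the KO stages the 7 genes of these 2 lists were called in 9 (Mcts1) to 20 (Abce1). Of 10 mitochondrial translation factors, 0 were called, and Tufm, the most abundant, had an adjusted p of 0.511 at estrus.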

How the data were processed

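RNA of sorted mouse mammary luminal cells was sequenced in 10 libraries of 4 groups. STAR, HTSeq and DESeq2 and the build mm10 are named, without versions or settings, per the submitters' processing notes; strand handling is not given in the sources used here. For each gene the authors deposited a normalized count rounded to a whole number, held here as a score because it is not a raw count. Groups follow the genotype entry and the library names; titles of KO libraries hold the letters WT as well.

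Genes with a mean of at least 10 (15180) were tested as log2(value + 1) with limma 3.58.1 in R 4.3.3. The fit had 1 mean per group over all 10 libraries and a spread that follows the level. Contrasts were two-sided, with Benjamini-Hochberg adjustment over the 15180 genes and a threshold of 0.05. Groups of 2 libraries borrow the spread of the others, and fold changes on this scale understate those of low genes. The code was tested on simulated data. Positions and transcripts came from GENCODE M21 (GRCm38). Figures used Python 3.11.15 and matplotlib 3.10.9.

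Named in full were members called in any comparison, the members of highest and lowest level per length in a complex, paralogs, and all eEF1 and eEF2 members. The members and lists were chosen with earlier results of these data known. As alternatives, the pseudocount was set to 0.5 or 5, the filter was dropped or raised to 50, and values were rescaled to equal totals, by quantiles, by trimmed means or after removal of a length and GC trend. Other fits had no trend in the spread, library weights, a block for the replicate number, only the groups compared, or 1 library fewer.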

Additional observations from a re-analysis of the deposited data

Results flagged for a closer look

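In 6 members all KO libraries lay on 1 side of all WT libraries at estrus and on the other side at diestrus, a pattern of 11.5% of the members and 5.65% of all tested genes. The change of the genotype difference from diestrus to estrus was 0.83 (log2) for Eef2kmt, 0.62 for Eif3i and 0.59 for Eif2b2, which were higher in KO at estrus. It was -0.77 for Eif4g2, -0.63 for Eif3j2 and -0.40 for Eif3j1, which were lower in KO at estrus. In 3 members (5.77%, against 1.38% of all tested genes), estrus and diestrus libraries did not overlap in either genotype and took opposite sides in WT and KO. Estrus was lower in WT and higher in KO for Eef1b2 (0.58), and higher in WT and lower in KO for Eif3j1 and Eif3j2. Reads inside the coding sequences of Eif3j1 and Eif3j2 cannot be told apart. Of their 50-base stretches, 39.8% and 91.8% occur in transcripts of other genes. For the change of the genotype difference, limma's test gave adjusted p-values from 0.237 for Eef2kmt to 0.354 for Eif3j1, so none passed. With 3 against 3 libraries at estrus and 2 against 2 at diestrus, 26% and 43.1% of all tested genes did not overlap between the genotypes.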

How the results depend on the processing

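The 4 members called in KO against WT at estrus and the 8 called in estrus against diestrus among KO libraries kept their direction under all 22 alternatives. Several of these cannot change an estimated difference, such as the changed filters, the fit without a trend in the spread and the omission of a library outside the compared groups. The counts moved more. At estrus 0 members were called without the filter, without the trend in the spread, with library weights or with the compared groups alone, and 1 after removal of the trend on length and GC content. Calls over all genes fell as well, from 637 in the main fit. They were 89 without the filter, 44 without the trend in the spread, 229 with library weights and 23 with the compared groups alone. After removal of the length and GC trend they were 200. Leaving out 1 library gave 0 to 7. In the KO stage comparison the count was 3 without the filter, 3 with the compared groups alone, 3 after removal of the length and GC trend, 4 without the trend in the spread and 14 with library weights, and 0 to 13 with 1 library left out. Averaged over both stages, 1 member was called with library weights. In KO against WT at diestrus, in the WT stage comparison and in the interaction, 0 members were called in each alternative run. The compared groups alone have fewer libraries to estimate the spread, and without the filter more genes are tested. Why the counts moved was not tested for any setting. Members with a difference above 0 at estrus numbered 22 as deposited and 29 after scaling to equal totals, 28 by quantiles, 23 by trimmed means and 29 after the length and GC trend was removed. A count test with edgeR was not run, because the values are not raw counts.

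With the replicate number as a block, 4 members were called at estrus (Eef1b2, Eef2, Eif3k and Eif4g2, without Eif1b) and 12 in the KO stage comparison. Deviations of same-numbered WT and KO estrus libraries correlated at 0.19, 0.08 and 0.03, and each of these 6 libraries correlated best with its own number except WT estrus 3; nothing says that the numbers pair mice, so this block is a setting and no pairing of the design.

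Each group has 2 or 3 libraries, and KO estrus 1 and 3 lay far apart in the TOP members. The rounding to whole numbers weighs most on Eif5a2, at 7 to 31 counts.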

Other observations

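Where a factor has paralogs, the members' counts also give the share of each form, not corrected for length. Eif1a made up 86.1 ± 1.48% of the summed Eif1a and Eif1ax counts in WT estrus (SD, n = 3), 83.6 ± 1.71% in KO estrus (n = 3) and 86.3 and 88.5% as means of 2 libraries in WT and KO diestrus. The helicase Eif4a2 made up 33.7 ± 2.90% of Eif4a1 and Eif4a2 in WT estrus and 35.4 ± 4.73% in KO estrus, a difference smaller than the spread. Eif4e3, a cap-binding relative of Eif4e, ran from 8.34 to 16.8% of the pair over the 10 libraries and was lowest in the KO diestrus libraries, at 9.66 and 8.34%. Eif4g2 made up 70.1, 76.5 and 83.9% of its sum with Eif4g1 in KO estrus 1, 2 and 3 against 80.9 to 83.5% in WT estrus, so the groups overlapped. Eif5a2 stayed at 0.285% or less of its sum with Eif5a in every library. None of these shares was tested.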
